A study of Mus musculus with 12 samples.

Results

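The genes described here code for the MEIS, PBX and PREP proteins, the cofactors with which HOX transcription factors bind DNA. They are Meis1, Meis2, Meis3, Pbx2, Pbx3, Pknox1 (PREP1) and Pknox2 (PREP2). Members were taken by symbol: a gene was included where a probe set was annotated to its symbol and to no other, and the brightest such probe set stood for it. All 7 were found, out of 19938 genes with such a probe set, and each had 1 probe set, so no choice among probe sets was needed. The probe sets were 10384504 for Meis1, 10486041 for Meis2, 10550274 for Meis3, 10444394 for Pbx2, 10481857 for Pbx3, 10443817 for Pknox1 and 10592251 for Pknox2.

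All of these proteins belong to the TALE class of homeodomain proteins, whose homeodomain carries a short extra loop. PBX proteins bind DNA next to a HOX protein and sharpen its choice of sites, while MEIS and PREP proteins pair with PBX, help to bring it into the nucleus and can join the HOX complex. In blood, Meis1 is active in stem cells, early progenitors and megakaryocytes, is shut down as granulocytes mature, and in mouse models speeds leukaemia driven by Hoxa9. Pbx3 is the PBX gene most often linked with high HOXA expression in human acute leukaemia.

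Bone marrow cells of adult mice (strain labelled C57/BL6/C3H) carried 1 of 4 retroviral constructs, and the labels give 3 biological replicates of each. The constructs were a fusion of CALM residues 400 to 648 with AF10 residues 677 to 758 (below, the minimal fusion), CALM-AF10, CALM-AF10 without the OM-LZ stretch (CALM-AF10 ΔOM-LZ), and the empty vector MIG. All donors had received 5-fluorouracil, which enriches marrow for stem and progenitor cells, and all cultures had 48 h of stimulation before transduction. They were then laid over GFP+E86 virus producers that had received 40 Gy, in medium with cytokines and 5 µg/ml of protamine sulfate. GFP-positive cells were sorted, and their RNA was extracted 96 h after transduction. OM-LZ is the octapeptide motif and leucine zipper of AF10, through which AF10 binds the histone methyltransferase DOT1L. The minimal fusion holds OM-LZ, and each sample was a sorted culture of mixed marrow cells. No label says what arrays with the same replicate number have in common, and p-values measure the spread between these samples only. The whole table held 35556 probe sets, array medians ran from 6.58 to 6.69, and correlations between arrays from 0.970 to 0.995.

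The cultures carried markers of progenitors, granulocytes, monocytes, megakaryocytes and mast cells. Averaged over the 12 arrays, the 7 progenitor markers were brighter than 53.3% (Procr) to 97.2% (Cd34) of tested probe sets. The 11 neutrophil markers ran from 27.7% (Mmp9) to 99.2% (the granule gene Mpo), and the 8 mast cell markers from 32.9% (Mcpt4) to 98.8% (Cpa3). The 7 monocyte and macrophage markers ran from 43.3% (Mrc1) to 89.7% (Cd68). The 7 megakaryocyte markers ran from 56.3% (Vwf) to 81.2% (Itga2b). The 5 B cell markers ran from 11.9% (Cd79a) to 68.9% (Cd79b). The 10 markers of fibroblasts, the lineage of the producer line, ran from 1.99% for Lum through 53.4% for Col1a1 to 92.6% for Thy1, a surface protein that T cells also carry. Carry-over of producer cells was not tested. Percentiles of this kind describe a probe set's brightness and do not rank transcripts. Of the cofactors, Meis1 was brighter than 88.6% of tested probe sets, Pbx2 than 78.9%, Pbx3 than 77.5% and Pknox1 than 57.9%. Meis3 (40.9%), Pknox2 (31%) and Meis2 (20.3%) were dim, and without a detection call their nearness to background was not tested.

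The promoters of Meis1 and Meis2 are shown because Meis1 varied most among the cofactors and Meis2 was the member whose arrays separated the minimal fusion from MIG. Each sequence runs from 250 bases before the gene start to 50 after it, on the gene's own strand, from RefSeq on build GRCm38.p6: chr11:19018920-19019219 (minus strand) for Meis1 and chr2:116064570-116064869 (minus strand) for Meis2. Capitals mark the core bound by ETS family factors, CCGGAA, on either strand. The table held 4 of the 7 members, and Pbx3, Pknox1 and Pknox2 are named only.
Meis1: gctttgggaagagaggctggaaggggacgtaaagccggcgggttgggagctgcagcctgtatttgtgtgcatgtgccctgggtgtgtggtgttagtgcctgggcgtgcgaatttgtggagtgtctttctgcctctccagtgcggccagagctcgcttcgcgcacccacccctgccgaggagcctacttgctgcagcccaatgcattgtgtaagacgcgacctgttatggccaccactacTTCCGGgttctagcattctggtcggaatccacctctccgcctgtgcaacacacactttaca
Meis2: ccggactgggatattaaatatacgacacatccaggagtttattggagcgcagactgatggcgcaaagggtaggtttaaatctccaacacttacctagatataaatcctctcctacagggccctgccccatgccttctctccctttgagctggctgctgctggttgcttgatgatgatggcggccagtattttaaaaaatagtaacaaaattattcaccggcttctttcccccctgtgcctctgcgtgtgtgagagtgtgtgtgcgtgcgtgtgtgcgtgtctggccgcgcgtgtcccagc
The ETS core occurred once in the Meis1 window and once in that of Meis3, and in 14.9% of all 32851 promoters of the same length. The MEIS and PREP core TGACAG, searched on both strands, was found in 19.2% of all promoters and in 0 of these 4 windows (Meis1, Meis2, Meis3 and Pbx2). The joint PBX and HOX site TGATTNAT was found in 3.22% of all promoters and also in 0 of these 4. Such a match or its lack describes the letters of the window and nothing about factor binding.

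Hoxa9, a HOX partner of these cofactors, rose in the minimal fusion, and no difference passed for any of the 7 cofactor genes. Hoxa9 had log2 values of 9.94, 10.09 and 10.13 in minimal fusion arrays, 9.03, 8.94 and 8.95 in CALM-AF10 arrays, 8.64, 8.57 and 8.63 in CALM-AF10 ΔOM-LZ arrays, and 8.74, 8.44 and 8.81 in MIG arrays. The minimal fusion exceeded MIG 2.61-fold in it (95% interval 2.22 to 3.07, limma adjusted p = 0.00132). With the 6 arrays of these constructs fitted alone the adjusted p of Hoxa9 was 0.114, with the same difference, and 0 probe sets were called. With any 1 of the 12 arrays left out the adjusted p of Hoxa9 was between 0.00206 and 0.0178. By the model of all 12 arrays 0 of the 7 cofactors passed an adjusted p of 0.05 in this comparison, where 0.0342% of the 23410 tested probe sets did. At an unadjusted p below 0.05 there was 1 cofactor, Meis2, against 7.61% of tested probe sets. By sign 3 cofactors were higher and 4 lower (51.2% of tested probe sets were higher), with a median log2 difference of -0.22, where the median over all genes was 0.01.

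The other comparisons likewise called 0 of the 7 by limma, and 0 had an unadjusted p below 0.05. For CALM-AF10 against MIG, 0% of tested probe sets were called and 5.26% had an unadjusted p below 0.05. By sign 1 cofactor was higher and 6 lower there (median -0.21, 51% of probe sets higher). For CALM-AF10 ΔOM-LZ against MIG, 0% were called and 3.96% passed unadjusted, and 2 cofactors were higher and 5 lower (median -0.23, 52.3% of probe sets higher). Comparisons with MIG share the MIG arrays, so their directions are not separate observations.

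For the minimal fusion against CALM-AF10 ΔOM-LZ, 0.0171% of probe sets were called and 4.1% passed unadjusted, with 4 cofactors higher and 3 lower (median 0.01, 50.2% of probe sets higher). For the minimal fusion against CALM-AF10, 0.00427% were called and 1.8% passed unadjusted, with 2 cofactors higher and 5 lower (median -0.07, 47.7% of probe sets higher). For CALM-AF10 against CALM-AF10 ΔOM-LZ, 0% were called and 2.26% passed unadjusted, with 4 cofactors higher and 3 lower (median 0.02, 51.2% of probe sets higher). Both fusions that hold OM-LZ were also averaged and set against the average of CALM-AF10 ΔOM-LZ and MIG. This called 0.0128% of probe sets (6.95% unadjusted, 50.9% higher by sign) and 0 cofactors, with the smallest unadjusted p of 0.068 for Meis2. In the F test over all 4 constructs 0.00854% of probe sets passed (4.3% unadjusted), Hoxa9 among them (adjusted p = 0.00262), and the cofactors had unadjusted p from 0.117 for Meis2 to 0.59 for Pknox2.

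Arrays of 2 constructs were separated for 1 cofactor each in the minimal fusion against MIG (Meis2, lower) and against CALM-AF10 ΔOM-LZ (Pknox1, higher), where 12.1% and 7.78% of probe sets were separated in either direction. In the other pairs of constructs the arrays of all 7 cofactors overlapped, and the shares of probe sets separated were 9.31% for CALM-AF10 against MIG, 8.04% for CALM-AF10 ΔOM-LZ against MIG, 6.76% for CALM-AF10 against CALM-AF10 ΔOM-LZ and 5.38% for the minimal fusion against CALM-AF10.

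**Figure D1:**
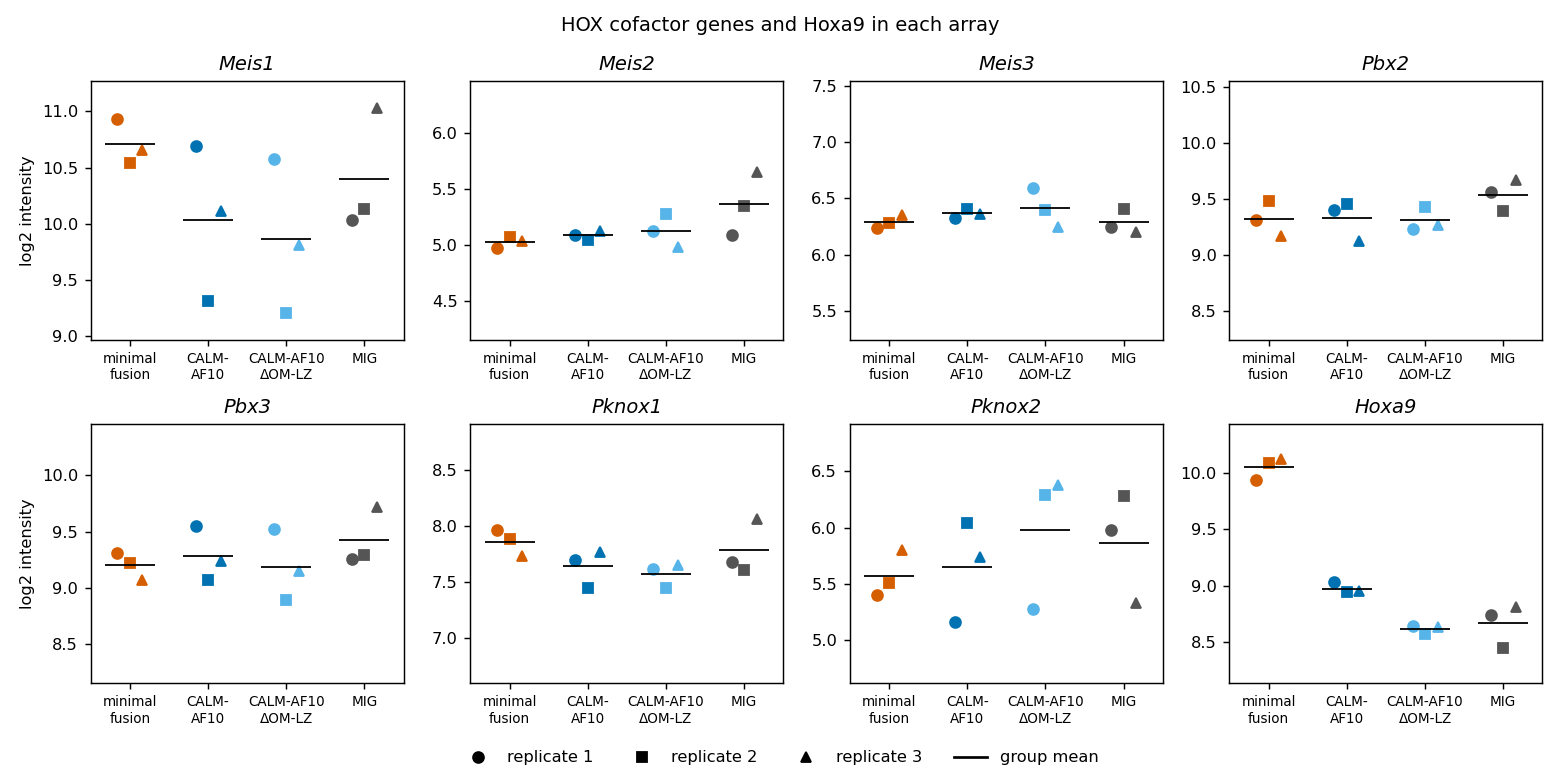
Log2 intensity of the 7 cofactor genes and Hoxa9 in each array, by construct, with marker shape for the replicate and a line for the group mean; every panel spans the same number of log2 units. Hoxa9 in the minimal fusion (9.94 to 10.13) stands clear of all other arrays, while the cofactors overlap between constructs except for Meis2 below MIG and Pknox1 above CALM-AF10 ΔOM-LZ in the minimal fusion.

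Meis1 differed more within constructs than between them. Its log2 values were 10.93, 10.54 and 10.66 in minimal fusion arrays, 10.69, 9.31 and 10.11 in CALM-AF10 arrays, 10.58, 9.21 and 9.81 in CALM-AF10 ΔOM-LZ arrays, and 10.03, 10.13 and 11.03 in MIG arrays (replicates 1, 2 and 3). The highest array of all was MIG replicate 3, and the lowest were replicate 2 of CALM-AF10 ΔOM-LZ and of CALM-AF10. The minimal fusion arrays lay close together and within the range of the MIG arrays. Group means were 10.71 (SD 0.20), 10.04 (SD 0.69), 9.86 (SD 0.68) and 10.40 (SD 0.55), n = 3 each, in the order minimal fusion, CALM-AF10, CALM-AF10 ΔOM-LZ and MIG. From high to low the order was minimal fusion, MIG, CALM-AF10, CALM-AF10 ΔOM-LZ, and no neighbours in it had an unadjusted limma p below 0.05.

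Against MIG, Meis1 stood 1.24-fold higher in the minimal fusion, with a 95% interval of 0.667 to 2.31 (log2 difference 0.31, SE 0.41, limma adjusted p = 0.893). The Hoxa9 ratio of 2.61 lay outside this interval, but its own interval of 2.22 to 3.07 overlapped that of Meis1. The changes of these genes were not tested against each other. Smaller changes of Meis1 in either direction lay inside the Meis1 interval. The largest difference of Meis1 was that of the minimal fusion against CALM-AF10 ΔOM-LZ, 1.79-fold higher (interval 0.964 to 3.33, unadjusted p = 0.0625, adjusted p = 0.999). Without replicate 1 of CALM-AF10 ΔOM-LZ this log2 difference was 1.20, against 0.84 with all arrays (unadjusted p = 0.0138, smallest adjusted p over the arrays left out in turn 0.905), and without replicate 2 it was 0.52. Against CALM-AF10 the minimal fusion was 1.59-fold higher in Meis1 (interval 0.855 to 2.95), a log2 difference of 0.67 that was 0.30 without CALM-AF10 replicate 2 and 0.995 without CALM-AF10 replicate 1. CALM-AF10 stood 1.28-fold lower than MIG and CALM-AF10 ΔOM-LZ 1.45-fold lower, with intervals of the ratio from 0.42 to 1.45 and from 0.372 to 1.29. The value against MIG moved with MIG replicate 3: without that array the minimal fusion stood 0.63 higher on the log2 scale, and without MIG replicate 1 it stood 0.13 higher.

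Meis2, a MEIS gene best known from limb, heart and brain development, was the member whose minimal fusion arrays all lay below all MIG arrays. It had log2 values of 4.97, 5.07 and 5.04 in minimal fusion arrays, 5.09, 5.05 and 5.13 in CALM-AF10 arrays, 5.13, 5.28 and 4.98 in CALM-AF10 ΔOM-LZ arrays, and 5.09, 5.35 and 5.65 in MIG arrays. The gap between the nearest arrays of the minimal fusion and MIG was small, and MIG replicate 1 sat among the CALM-AF10 arrays. Means were 5.02 (SD 0.05) in the minimal fusion, 5.09 (SD 0.04) in CALM-AF10, 5.13 (SD 0.15) in CALM-AF10 ΔOM-LZ and 5.36 (SD 0.28) in MIG, n = 3 each. Neighbours in this order had no unadjusted limma p below 0.05. The minimal fusion stood 1.27-fold lower than MIG (95% interval of the ratio 0.643 to 0.968, unadjusted p = 0.027, limma adjusted p = 0.588). In this direction 6% of tested probe sets did not overlap between these groups. The log2 difference of -0.34 was -0.20 without MIG replicate 3 and -0.48 without MIG replicate 1. CALM-AF10 stood 0.28 lower than MIG on the log2 scale and CALM-AF10 ΔOM-LZ 0.23 lower, both overlapping MIG.

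Meis3, the third MEIS gene, had the tightest values. They were 6.24, 6.28 and 6.35 in minimal fusion arrays, 6.33, 6.41 and 6.36 in CALM-AF10 arrays, 6.59, 6.40 and 6.25 in CALM-AF10 ΔOM-LZ arrays, and 6.25, 6.41 and 6.20 in MIG arrays, with overlap between all constructs. Means were 6.29 (SD 0.06) in the minimal fusion, 6.37 (SD 0.04) in CALM-AF10, 6.41 (SD 0.17) in CALM-AF10 ΔOM-LZ and 6.29 (SD 0.11) in MIG. No neighbours in their order had an unadjusted limma p below 0.05. For the minimal fusion against MIG the 95% interval of the ratio was 0.857 to 1.17. No comparison of Meis3 had an interval of the ratio beyond 0.786 to 1.27.

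Pbx2, a broadly expressed PBX gene, stood a little lower in every fusion than in MIG. Its log2 values were 9.31, 9.48 and 9.17 in minimal fusion arrays, 9.40, 9.46 and 9.13 in CALM-AF10 arrays, 9.23, 9.43 and 9.27 in CALM-AF10 ΔOM-LZ arrays, and 9.56, 9.39 and 9.67 in MIG arrays. MIG replicate 2 lay below the highest array of each fusion, so no construct was separated from MIG. Means were 9.32 (SD 0.16), 9.33 (SD 0.17), 9.31 (SD 0.11) and 9.54 (SD 0.14) in the minimal fusion, CALM-AF10, CALM-AF10 ΔOM-LZ and MIG. Neighbours by level had no unadjusted limma p below 0.05. The log2 differences from MIG were -0.22 for the minimal fusion, -0.21 for CALM-AF10 and -0.23 for CALM-AF10 ΔOM-LZ (SE 0.12 each), with limma adjusted p of 0.727, 0.9997 and 0.999. Without minimal fusion replicate 3 the log2 difference of the minimal fusion was -0.14. Among the 3 fusions the means differed by at most 0.02, in intervals of the ratio from 0.822 to 1.23 over the 3 pairs.

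Pbx3 had log2 values of 9.31, 9.22 and 9.07 in minimal fusion arrays, 9.55, 9.07 and 9.24 in CALM-AF10 arrays, 9.52, 8.89 and 9.15 in CALM-AF10 ΔOM-LZ arrays, and 9.26, 9.29 and 9.72 in MIG arrays. The highest array was again MIG replicate 3 and the lowest again replicate 2 of CALM-AF10 ΔOM-LZ, as for Meis1. Means were 9.20 (SD 0.12), 9.29 (SD 0.24), 9.19 (SD 0.32) and 9.42 (SD 0.25) in the minimal fusion, CALM-AF10, CALM-AF10 ΔOM-LZ and MIG. The minimal fusion, in which Hoxa9 rose, stood 1.17-fold lower than MIG in Pbx3 (95% interval of the ratio 0.645 to 1.14, limma adjusted p = 0.825). That log2 difference of -0.22 was -0.08 without MIG replicate 3. CALM-AF10 and CALM-AF10 ΔOM-LZ stood 1.10-fold and 1.18-fold lower than MIG. The order of means from high to low was MIG, CALM-AF10, minimal fusion, CALM-AF10 ΔOM-LZ, with no unadjusted limma p below 0.05 between neighbours.

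Pknox1, a broadly expressed PREP gene needed for normal blood formation in mice, had log2 values of 7.96, 7.88 and 7.73 in minimal fusion arrays, 7.70, 7.45 and 7.77 in CALM-AF10 arrays, 7.62, 7.45 and 7.65 in CALM-AF10 ΔOM-LZ arrays, and 7.68, 7.61 and 8.06 in MIG arrays. The order of means from high to low was minimal fusion at 7.86 (SD 0.12), MIG at 7.78 (SD 0.24), CALM-AF10 at 7.64 (SD 0.17) and CALM-AF10 ΔOM-LZ at 7.57 (SD 0.11). Neighbours in it had no unadjusted limma p below 0.05. All minimal fusion arrays lay above all CALM-AF10 ΔOM-LZ arrays, by 0.28 on average on the log2 scale (95% interval -0.02 to 0.59, unadjusted p = 0.0623, limma adjusted p = 0.999). In this comparison 3.7% of tested probe sets were separated in the same direction. Against MIG the minimal fusion stood 1.05-fold higher (log2 difference 0.07, 95% interval -0.23 to 0.38), and the sign of that difference turned without MIG replicate 2 (log2 difference -0.01). Without MIG replicate 3 it was 0.21.

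Pknox2, the second PREP gene, had log2 values of 5.40, 5.51 and 5.80 in minimal fusion arrays, 5.16, 6.04 and 5.74 in CALM-AF10 arrays, 5.28, 6.29 and 6.38 in CALM-AF10 ΔOM-LZ arrays, and 5.98, 6.28 and 5.33 in MIG arrays. Low arrays were found in all 4 constructs, among them MIG replicate 3 and replicate 1 of CALM-AF10 and of CALM-AF10 ΔOM-LZ, the arrays in which Meis1 was high. Means were 5.57 (SD 0.21), 5.65 (SD 0.45), 5.98 (SD 0.61) and 5.86 (SD 0.49) in the minimal fusion, CALM-AF10, CALM-AF10 ΔOM-LZ and MIG. Neighbours by level had no unadjusted limma p below 0.05. The minimal fusion stood 1.22-fold lower than MIG (95% interval of the ratio 0.492 to 1.36) and 1.33-fold lower than CALM-AF10 ΔOM-LZ (interval 0.452 to 1.25), with limma adjusted p of 0.876 and 0.999. Without replicate 1 of CALM-AF10 ΔOM-LZ the log2 difference from that construct was -0.77, against -0.41 with all arrays (unadjusted p = 0.0272), and without replicate 3 it was -0.22. Against MIG the log2 difference of -0.29 was -0.09 without MIG replicate 2 and -0.56 without MIG replicate 3.

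**Figure D2:**
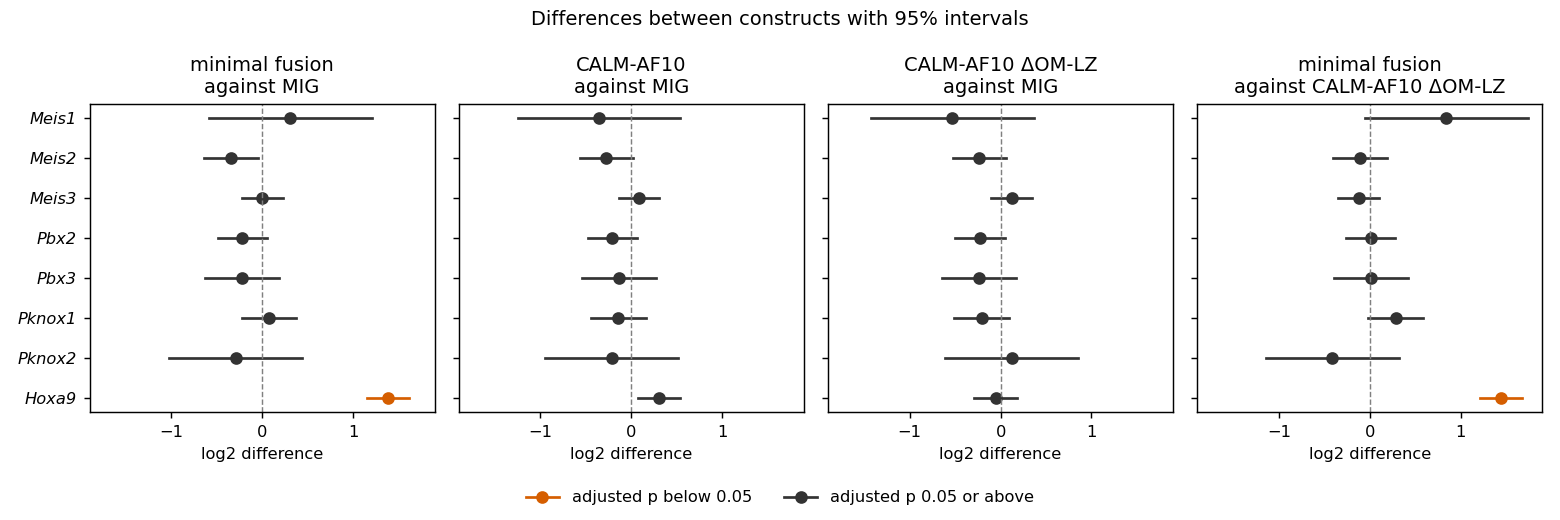
Log2 difference of each gene with its 95% interval (limma, 12 arrays) in 4 comparisons, orange where the adjusted p was below 0.05. Hoxa9 alone is orange, in the minimal fusion against MIG (1.39) and against CALM-AF10 ΔOM-LZ (1.44), and the widest intervals are those of Meis1 and Pknox2.

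The width of those intervals followed the spread between replicates. The SD within constructs was 0.57 for Meis1, larger than for 96.3% of all genes, and 0.462 for Pknox2, larger than for 93.7%. For Meis3 it was 0.107, with 12.8% of genes lower, and the median gene had 0.177. Construct held 97.5% of the variance of Hoxa9 over the 12 arrays and 32.8% of that of Meis1, where the median gene had 22.2%. The share for the other cofactors ran from 16.2% (Pknox2) to 48.3% (Meis2). Replicate number held 33.3% of the variance of Meis1, 33.1% of that of Pknox2 and 29.9% of that of Pbx3, against a median of 22.2% over genes.

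In CALM-AF10 and CALM-AF10 ΔOM-LZ the arrays with the same replicate number deviated together, over all tested probe sets (r = 0.70 to 0.73 in the 3 pairs). Within these pairs Meis1 stood higher in CALM-AF10 by 0.12, 0.10 and 0.31 on the log2 scale, although it ranged over more than 1 log2 unit within each construct. Pbx3 stood higher by 0.03, 0.18 and 0.10, and Pknox2 lower, with differences of -0.12, -0.25 and -0.64. Each of these kept 1 direction in all 3 pairs, and the remaining cofactors did not. A limma fit of these 6 arrays with the replicate number as a block gave a log2 difference of 0.17 for Meis1 (SE 0.08, adjusted p = 0.393) and of -0.34 for Pknox2 (SE 0.12, unadjusted p = 0.0301, adjusted p = 0.305). It called 0 of the 7 cofactors and 0.00427% of tested probe sets, and 14.2% of tested probe sets had an unadjusted p below 0.05 in it. For Meis1 the interval of the log2 difference narrowed to -0.02 to 0.37, from -0.72 to 1.07 without the block.

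**Figure D3:**
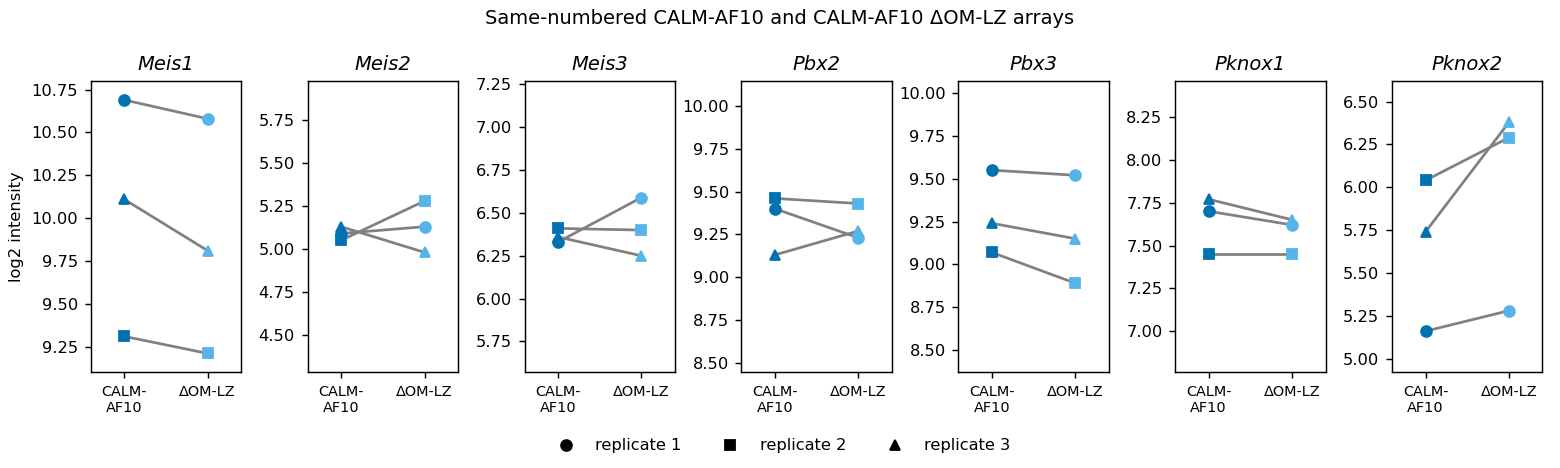
Log2 intensity of the 7 cofactors in CALM-AF10 arrays (left) and CALM-AF10 ΔOM-LZ arrays (right of each panel), with lines joining arrays of the same replicate number. The lines of Meis1 and Pbx3 run nearly parallel and slope down to CALM-AF10 ΔOM-LZ, and those of Pknox2 slope up.

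Across the 12 arrays Meis1 varied with Pbx3 and with Pknox1, and Pknox2 varied against Meis1 and Pbx3. Meis1 correlated with Pknox1 at r = 0.84 (rho = 0.76, permutation p = 0.00074 and 0.00612, adjusted over 21 pairs of cofactors 0.0155 and 0.0375). Its correlation with Pbx3 was r = 0.75 (rho = 0.73, permutation p = 0.00516 and 0.0098, adjusted 0.0271 and 0.0412). With Pknox2 it was r = -0.81 (rho = -0.81, permutation p = 0.00168 and 0.00192, adjusted 0.0176 and 0.0375). Pbx3 and Pknox2 had r = -0.75 (rho = -0.75, permutation p = 0.00496 and 0.00714, adjusted 0.0271 and 0.0375). Since CALM-AF10 and CALM-AF10 ΔOM-LZ arrays are not independent of each other, the p-values are too small. With same-numbered arrays of these constructs averaged, over 9 values, r was 0.86 for Meis1 with Pknox1, 0.67 with Pbx3 and -0.81 with Pknox2, and -0.67 for Pbx3 with Pknox2. Minimal fusion replicate 1 stayed a separate value among the 9, although it deviated with replicate 1 of CALM-AF10 (r = 0.72) and of CALM-AF10 ΔOM-LZ (r = 0.62). These 9 values are thus not fully independent either.

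These relations held within constructs. After each construct's mean was subtracted, r was 0.96 for Meis1 with Pbx3, 0.76 with Pknox1 and -0.88 with Pknox2, and -0.93 for Pbx3 with Pknox2. Without the 2 arrays farthest from the Meis1 median, replicate 2 of CALM-AF10 and of CALM-AF10 ΔOM-LZ, r was 0.57 with Pbx3, 0.70 with Pknox1 and -0.83 with Pknox2. Without the 2 arrays farthest from the Pbx3 median, MIG replicate 3 and CALM-AF10 ΔOM-LZ replicate 2, r of Pbx3 with Pknox2 was -0.68. Of the other 17 pairs of cofactors, 0 passed after adjustment of Pearson's r, and Meis3 with Pknox1 passed by rank (r = -0.63, rho = -0.75, permutation p = 0.0282 and 0.0069, adjusted 0.113 and 0.0375, r = -0.68 without the 2 arrays farthest from the Meis3 median).

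With Hoxa9 no cofactor passed. Over 7 relations r ran from -0.43 for Meis2 to 0.49 for Meis1 and 0.50 for Pknox1, with smallest adjusted permutation p of 0.325 for Pearson's r and 0.164 for the rank correlation. The minimal fusion arrays form a separate group in Hoxa9, so these pooled values mix a difference between constructs with the variation inside them. Within constructs r ran from -0.46 for Pknox2 and -0.33 for Meis3 to 0.42 for Pknox1, with 0.37 for Meis1, 0.36 for Pbx3, 0.35 for Pbx2 and 0.16 for Meis2.

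**Figure D4:**
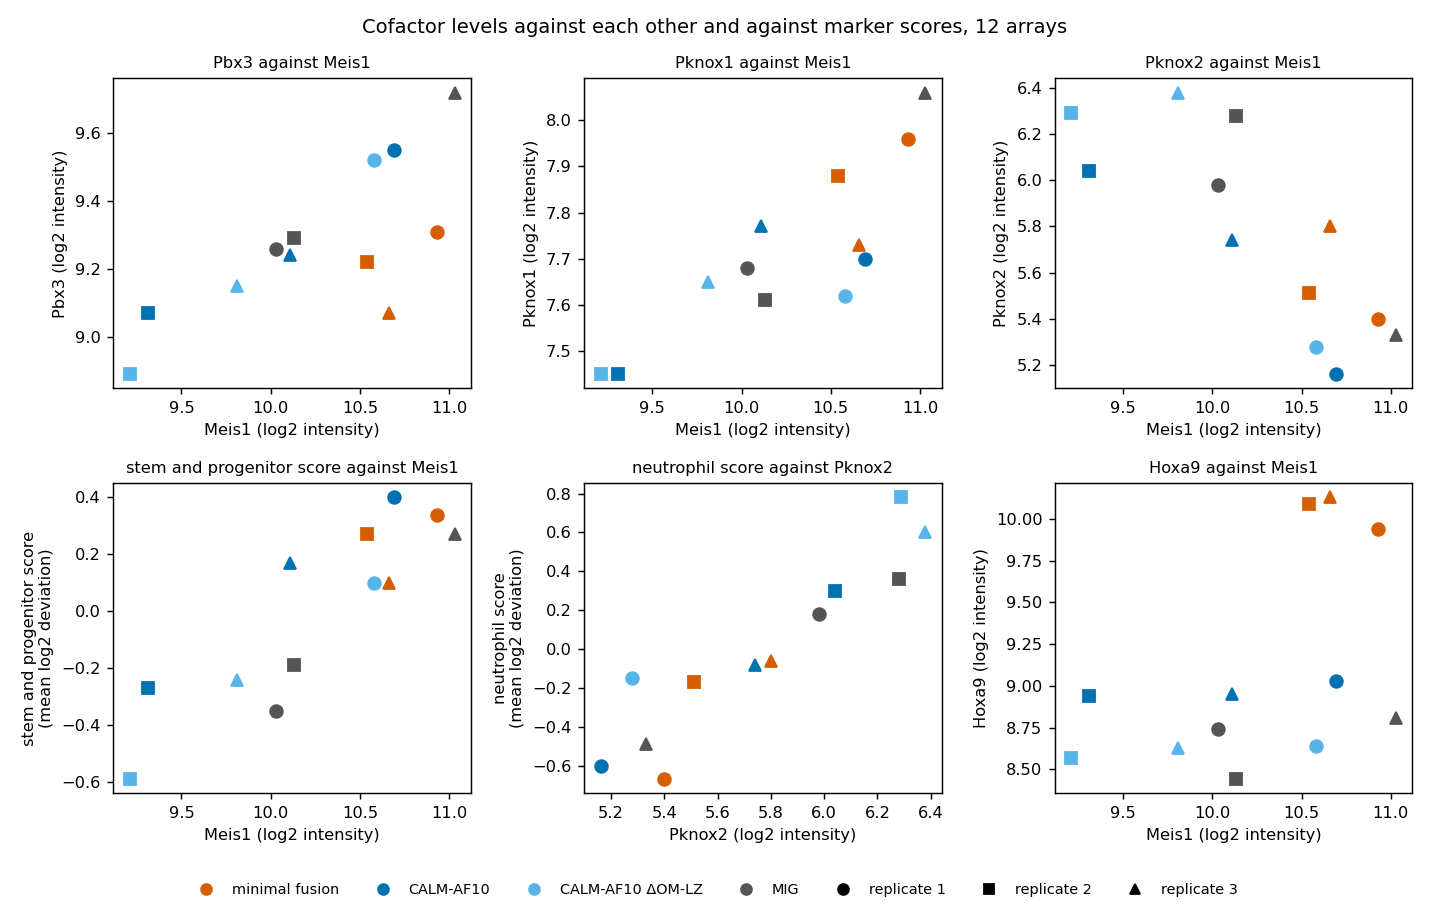
Each point is 1 of the 12 arrays, coloured by construct and shaped by replicate. Axes are log2 intensities, or, for marker scores, the mean log2 deviation of the listed markers from their 12-array means. Pknox1 and the stem and progenitor score increase with Meis1 (r = 0.84 and 0.88), Pknox2 decreases (r = -0.81), the neutrophil score increases with Pknox2 (r = 0.93), and Hoxa9 separates the minimal fusion at Meis1 levels that other constructs also reach.

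Markers of cell types in the culture moved with the same cofactors. The stem and progenitor score (7 markers: Kit, Cd34, Flt3, Gata2, Slamf1, Procr and Cd27) correlated with Meis1 at r = 0.88 (rho = 0.84, permutation p = 0.0002 and 0.00126, adjusted over 70 relations 0.00467 and 0.0221) and at 0.97 within constructs. By array the score was 0.34, 0.27 and 0.10 in the minimal fusion, 0.40, -0.27 and 0.17 in CALM-AF10, 0.10, -0.59 and -0.24 in CALM-AF10 ΔOM-LZ, and -0.35, -0.19 and 0.27 in MIG. Of its markers 1 of 7 passed in the minimal fusion against MIG, Cd27 (log2 difference 1.93, limma adjusted p = 0.0359), named after its value was seen. Its adjusted p was 0.353 with the compared groups fitted alone and between 0.0262 and 0.155 with 1 array left out. All 7 markers had a positive r with Meis1, from 0.08 for Procr to 0.83 for Cd34, a surface sialomucin of progenitors. The neutrophil score (11 markers) correlated with Meis1 at r = -0.89 (rho = -0.87, permutation p = 0.00014 and 0.0006, adjusted 0.00467 and 0.021). Its values ran from -0.67 to -0.06 in the minimal fusion, -0.60 to 0.30 in CALM-AF10, -0.15 to 0.78 in CALM-AF10 ΔOM-LZ and -0.49 to 0.36 in MIG. Of those markers 10 had a negative r with Meis1, the lowest being -0.89 for Camp, a granule peptide of maturing neutrophils. Leaving out the same farthest arrays gave r = 0.82 for the stem score and -0.89 for the neutrophil score, and over 9 values r was 0.90 and -0.92.

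Pknox2 ran the opposite way. Its r was 0.93 with the neutrophil score (rho = 0.92, permutation p = 6e-05 and 8e-05, adjusted 0.0042 and 0.0056, 0.95 within constructs) and -0.87 with the stem and progenitor score (rho = -0.79, permutation p = 0.00054 and 0.00349, adjusted 0.00854 and 0.0413). Camp (0.92) and Ltf (0.91), both granule genes of late neutrophil precursors, were its closest neutrophil markers. Without the 2 arrays farthest from its median, r was 0.90 with the neutrophil score and -0.86 with the stem score. Pknox1 had r = 0.76 with the stem score and -0.76 with the neutrophil score (rho = 0.77 and -0.77, permutation p for r 0.00396 and 0.00412 and for rho 0.00476 and 0.00468, adjusted 0.032 for both r and 0.0417 for both rho, r = 0.74 and -0.63 without the 2 farthest arrays).

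Pbx3 followed mast cell markers, and megakaryocyte markers also ran with it. With the mast cell score (8 markers) r was 0.82 (rho = 0.65, permutation p = 0.00111 and 0.0261, adjusted 0.013 and 0.141), and 0.85 without the 2 farthest arrays. The score was highest in MIG replicate 3 (2.22) and in replicate 1 of CALM-AF10 ΔOM-LZ (1.40) and of CALM-AF10 (1.11), the 3 arrays with the highest Pbx3, and -0.48, -1.41 and -1.03 in the minimal fusion. All 8 markers had a positive r with Pbx3, from 0.43 for Mcpt8 to 0.88 for Tpsb2, a mast cell tryptase. Basophils had no marker list of their own, so the mast cell score does not tell them from mast cells. Kit, the stem cell factor receptor of progenitors and mast cells, had r = 0.85 with Pbx3. Over the 7 stem and progenitor markers r with Pbx3 ran from -0.18 to 0.85, and 5 were positive. The stem and progenitor score did not pass with Pbx3 (r = 0.67, rho = 0.59, permutation p = 0.0184 and 0.0494, adjusted 0.107 and 0.203, 0.48 without the 2 farthest arrays), although r within constructs was 0.97. Within constructs the mast cell score had r = 0.91 with Pbx3, 0.92 with Meis1 (0.39 over the 12 arrays) and -0.89 with Pknox2. All 8 mast cell markers also had a positive r with Meis1, Meis2 and Pbx2 over the 12 arrays. All 7 megakaryocyte markers had a positive r with Pbx3, from 0.48 to 0.82. The megakaryocyte score had r = 0.65 with Pbx3 (rho = 0.62, permutation p = 0.0219 and 0.0378, adjusted 0.118 and 0.189), and 0.71 without the 2 farthest arrays. With the neutrophil score Pbx3 had r = -0.73 (rho = -0.71, permutation p = 0.00757 and 0.0134, adjusted 0.053 and 0.104), and -0.96 within constructs. Of the 11 neutrophil markers 3 had a positive r with Pbx3, up to 0.56. With the T and NK cell score, made of 6 mostly dim probe sets, Pbx3 had r = -0.85 (rho = -0.84, permutation p = 0.00061 and 0.00101, adjusted 0.00854 and 0.0221, -0.77 without the 2 farthest arrays).

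Meis2 followed megakaryocyte markers, with r = 0.76 (rho = 0.78, permutation p = 0.00308 and 0.00354, adjusted 0.0308 and 0.0413). All 7 of those markers had a positive r with it, from 0.66 for Itga2b to 0.80 for Gp5, a platelet surface glycoprotein. Without MIG replicates 2 and 3, the arrays farthest from its median, r was 0.49. All 8 mast cell markers also had a positive r with Meis2, from 0.33 to 0.70. The mast cell score had r = 0.65 with it (rho = 0.60, permutation p = 0.0267 and 0.0422, adjusted 0.134 and 0.197). The 4 erythroid markers ran from r = -0.31 to 0.87 with Meis2. The megakaryocyte score was -0.34, -0.90 and -0.84 in minimal fusion arrays, 0.13, -0.69 and -0.23 in CALM-AF10 arrays, 1.11, 0.14 and -0.50 in CALM-AF10 ΔOM-LZ arrays, and -0.18, 1.05 and 1.26 in MIG arrays. In the minimal fusion against MIG 7 of 7 measured megakaryocyte markers were lower in the minimal fusion, 5 with an unadjusted p below 0.05 and 0 called by limma (median log2 difference -1.04). So were 8 of 8 mast cell markers, 3 with an unadjusted p below 0.05 and 0 called by limma (median -1.94). Over all tested probe sets in this comparison 51.2% were higher and 7.61% had an unadjusted p below 0.05. MIG replicates 2 and 3 had the highest Meis2 values and high megakaryocyte scores, while CALM-AF10 ΔOM-LZ replicate 1 had a score as high at a Meis2 value of 5.13. The part of marker-bearing cells in the cofactor differences was not tested, and in a bulk sample fewer cells of a type and less RNA per cell cannot be told apart.

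Among all 19937 other genes, those most like each cofactor over the 12 arrays were taken by Pearson's r, as a description of 12 arrays that share a culture system. For Meis1 they were Tnfsf10, which codes for the death ligand TRAIL (r = 0.93), Clnk, an immunoreceptor adaptor gene of mast and other immune cells (0.93), and Casp12, a caspase gene (0.92), and Apol7d was lowest (-0.93). For Pbx3 they were Tgfbr1 (0.97) and Tgfbr2 (0.97), the 2 chains of the TGF-beta receptor, and Ikzf2, the Helios zinc finger factor gene (0.96), with Foxe3 lowest (-0.97). For Pknox2 they were Sorl1, a sorting receptor gene (0.96), Itgb2l, an integrin beta gene (0.96), and Wfdc21 (0.96), with Trgv1 lowest (-0.96). Pknox1 was most like 4930520O04Rik (0.92), Abcb1b, a multidrug transporter gene (0.92), and Reps1 (0.90), with Acaa1a lowest (-0.94).

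Meis2 was most like Gucy1b1, a chain of the nitric oxide receptor guanylate cyclase (r = 0.95), St3gal6 (0.91) and Pls1 (0.91), with 2310022A10Rik lowest (-0.93). Meis3 was most like Agtr2, an angiotensin receptor gene (0.92), Rab3il1 (0.90) and Cbr2 (0.90), with Cep72 lowest (-0.87). Pbx2 was most like Ska2, a spindle protein gene (0.91), Csgalnact2 (0.89) and Hspa4l (0.89), with Upk1a lowest (-0.90). With so many genes and 12 arrays, high values of r also occur for dim probe sets with little spread, such as Upk1a (SD 0.097) and Agtr2 (SD 0.145).

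The wider network of HOX cofactors was read from lists of related genes in the minimal fusion against MIG. Of 10 measured HOXA genes 4 passed, all higher (Hoxa9 and Hoxa6, and Hoxa10 and Hoxa3, which were named after their values were seen). Hoxa9 alone of them passed with the replicate block, without MIG replicate 3, and without minimal fusion replicate 2 or 3, and 0 passed with the compared groups fitted alone. With any other 1 array left out 2 to 5 passed. The median log2 difference was 1.16, and the extremes by statistic were Hoxa9 (1.39) and Hoxa6 (1.61) at the upper end and Hoxa11 (0.27, adjusted p = 0.718) and Hoxa13 (0.25, adjusted p = 0.686) at the lower. Of 27 HOX genes of the other clusters 0 passed by limma, with 0 at an unadjusted p below 0.05 and a median of 0.08. By sign 24 of them were higher and 3 lower, where 51.2% of tested probe sets were higher. Hoxb5 (0.19) and Hoxc11 (0.16) had the highest statistics and Hoxc13 (-0.07) and Hoxc8 (-0.07) the lowest, with adjusted p of 0.70 to 0.939. Of 10 other TALE homeobox genes, which include the TGIF and Iroquois families, 0 passed, with 0 at an unadjusted p below 0.05 and a median of 0.07. All 10 were higher by sign. Irx1 (0.23) and Irx4 (0.13) were at the upper end and Mkx (0.01) and Tgif2 (0.02) at the lower.

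Coregulators that PBX and MEIS proteins bind, and genes tied to MEIS1 with HOXA9 in blood cells, also gave 0 calls by limma. In the minimal fusion against MIG 7.61% of tested probe sets had an unadjusted p below 0.05. Of 8 measured coregulators 1 had an unadjusted p below 0.05: Crtc1, a coactivator of CREB, was 0.47 above MIG in the minimal fusion (SE 0.13, adjusted p = 0.435). The median was -0.0040, and the histone deacetylase gene Hdac3 (0.20), the PBX-binding protein gene Pbxip1 (-0.08) and the acetyltransferase gene Ep300 (-0.13) were the other extremes. Of 15 genes tied to MEIS1 with HOXA9, 6 had an unadjusted p below 0.05 and the median was 0.03. The progenitor factor genes Lmo2 (0.59, adjusted p = 0.394) and Sox4 (0.55, adjusted p = 0.475) stood higher, and Pf4, the platelet factor 4 gene of megakaryocytes (-1.57, adjusted p = 0.532), and Hif1a, the low-oxygen factor gene (-0.57, adjusted p = 0.544), stood lower. The list shares Cd34 and Flt3 with the progenitor markers and Pf4 with the megakaryocyte markers.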

How the data were processed

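Per the labels, total RNA of GFP-sorted cells was labelled with a whole-transcript sense assay and hybridized to 1 array per sample. The submitters' processing notes name Affymetrix Expression Console, with neither its version nor its normalization. The deposited table holds 1 log2 intensity for each probe set in each array. This unit was read from the values (2.88 to 14.3), and nothing was renormalized. A probe annotation table named genes for 23410 probe sets, 21789 with 1 symbol.

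All 12 arrays entered 1 linear model (limma 3.58.1, R 4.3.3, lmFit and eBayes) with 1 mean per construct, 8 residual degrees of freedom, two-sided p and Benjamini-Hochberg adjustment over the 23410 probe sets (threshold 0.05). The code was tested on simulated data. The number of arrays limits the precision, and 95% intervals are given. Correlations used 100000 permutations of the arrays (numpy 2.4.6), two-sided, adjusted within families of 21, 7 and 70. Replicate numbers were checked for pairing by correlating deviations from group means. In CALM-AF10 with CALM-AF10 ΔOM-LZ every pair exceeded 0.1 (0.70 to 0.73), a pairing seen in the values and stated by no label, and in no other pair of constructs did all 3. The minimal fusion gave 0.72, 0.39 and -0.20 with CALM-AF10 (replicates 1, 2 and 3). With CALM-AF10 ΔOM-LZ it gave 0.62, 0.07 and -0.07, and with MIG -0.60, -0.35 and -0.21.

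The genes, lists and tests were chosen with earlier results of these data known. The rule named all cofactors, the 3 most and 1 least correlated genes of each, Hoxa9, and from each related list the 2 highest and 2 lowest statistics of the minimal fusion against MIG. Cell type scores are means over the list of log2 deviations from the 12-array mean. Alternatives were all probe sets, median centring, quantile normalization, bright probe sets only, trend and robust variance, the compared groups alone, a replicate block, probe set means and each array left out.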

Additional observations from a re-analysis of the deposited data

How the results depend on the processing

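Under 9 alternatives that kept all arrays of a comparison, 371 log2 differences of the 7 cofactors were recomputed and 0 were called (smallest adjusted p 0.305). After leaving out each array in turn, 588 gave 0 calls (smallest adjusted p 0.273, Meis2 in the minimal fusion against MIG without MIG replicate 1). The filter on bright probe sets kept 4 cofactors (Meis1, Pbx2, Pbx3 and Pknox1). The replicate block in all 12 arrays gave a smallest adjusted p of 0.542. The block in the 6 arrays of the paired constructs and correlations over 9 values were added after seeing the data. Over all genes, the minimal fusion against MIG called 8 probe sets. It called 20 where probe sets without a symbol were included, 6 to 11 under 5 other alternatives, 1 with the replicate block (Hoxa9) and 0 with the compared groups fitted alone. With 1 array left out it called 1 to 9, the lowest without MIG replicate 3 or minimal fusion replicate 2 or 3.

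Differences near 0 changed sign under other processing. With 1 array left out larger ones did too, such as Meis1 in CALM-AF10 against MIG (-0.36 with all arrays). The cause was not tested. With median centring Meis3 in the minimal fusion against MIG was -0.010, and with quantile normalization -0.028. Quantile normalization also gave -0.035 for Pbx2 in CALM-AF10 against CALM-AF10 ΔOM-LZ and 0.047 in the minimal fusion against CALM-AF10. Leaving out 1 array, the log2 differences that changed sign spanned the following ranges. In the minimal fusion against MIG they were -0.040 to 0.062 for Meis3 and -0.014 to 0.21 for Pknox1. In CALM-AF10 against MIG they were -0.68 to 0.0071 for Meis1, -0.27 to 0.0084 for Pbx3 and -0.48 to 0.027 for Pknox2, and in CALM-AF10 ΔOM-LZ against MIG -0.14 to 0.47 for Pknox2. In the minimal fusion against CALM-AF10 ΔOM-LZ they were -0.071 to 0.087 for Pbx2 and -0.13 to 0.18 for Pbx3. In CALM-AF10 against CALM-AF10 ΔOM-LZ they were -0.15 to 0.54 for Meis1, -0.12 to 0.034 for Meis2, -0.12 to 0.047 for Meis3, -0.042 to 0.12 for Pbx2, -0.048 to 0.27 for Pbx3 and -0.00028 to 0.16 for Pknox1. In the minimal fusion against CALM-AF10 they were -0.11 to 0.066 for Pbx2, -0.20 to 0.044 for Pbx3 and -0.32 to 0.12 for Pknox2. With both OM-LZ fusions averaged they were -0.061 to 0.024 for Meis3 and -0.14 to 0.021 for Pbx3.

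With 3 arrays per construct the widest intervals were those of Meis1 and Pknox2, and how near the dim Meis2, Meis3 and Pknox2 probe sets lay to background was not tested.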
